A study of Mus musculus with 6 samples.

Results

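Pthlh and Pth1r, the genes of a secreted peptide and of its receptor, were followed through every cell class of embryonic mouse skin in 6 single-cell RNA libraries. They are 2 of the 28000 genes in the deposited matrices. They were picked by name, together with the cell classes in which they had stood out, so their levels by class, stage and genotype are given as description, with no test. Over all libraries 1673 UMIs (unique molecular identifiers, each counting 1 captured RNA molecule) came from Pthlh and 44979 from Pth1r.

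Pthlh encodes parathyroid hormone-related protein, which acts mostly on neighbouring cells rather than through the blood. Its receptor, the product of Pth1r, is a G protein-coupled receptor of the cell surface that raises cyclic AMP through Gs and can also signal through Gq. In the mouse mammary bud the epithelium makes the peptide and the mesenchyme beneath it carries the receptor, and loss of either stops the bud from instructing that mesenchyme. In growth cartilage the peptide forms a feedback loop with Indian hedgehog that delays hypertrophy. In skin the peptide is a known product of keratinocytes, and its excess in the epidermis of transgenic mice impairs hair follicle formation.

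The LOF groups were PDGFRalphaCreER(Lo);beta-catfl/fl;mTmG embryos on the CD1 background, with 1 library at embryonic day (E) 14.5 and 1 at E13.5. In these embryos a tamoxifen-dependent Cre recombinase, driven by the promoter of Pdgfra (a receptor gene of dermal mesenchyme), acts on floxed beta-catenin, the effector of canonical Wnt signalling, and on mTmG, a reporter that changes from tdTomato to eGFP where Cre has acted. The treatment text, which stands on every sample, gives a single oral dose of tamoxifen at E11.5, with 30 and 15 µg per g of body weight both written. Controls, labelled WT and CD1, had 2 libraries at E14.5 and 2 at E13.5. Each library pooled dorsolateral and flank skin of 3 to 4 embryos, stained with DAPI and passed through a cell sorter. P-values over libraries thus measure the spread between pools. Where libraries of both stages and genotypes are tested as 1 set, that spread also holds the differences between those groups.

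Libraries held 5850 to 8922 cells with median depths of 8192 to 11323 UMIs per cell. Of 39729 distinct cell barcodes 917 occurred in more than 1 library, 44 to 101 per pair of libraries. Ctnnb1, the beta-catenin gene, was at 199 UMIs per 1000000 UMIs of the class (CPM) in fibroblasts of E14.5 LOF against 182 and 178 CPM in E14.5 controls, and at 242 CPM in E13.5 LOF against 197 and 182 CPM in E13.5 controls. Tags at the 3′ end lie outside the floxed part, so these levels do not check the deletion. The Wnt target Sp5 was at 16.4 CPM in fibroblasts of E14.5 LOF against 40.4 and 47.2 CPM in E14.5 controls, and at 3.62 CPM in E13.5 LOF against 42.2 and 43.6 CPM in E13.5 controls. Axin2, another Wnt target, was at 30.5 CPM in E14.5 LOF against 59.4 and 28.9 CPM in E14.5 controls, so LOF lay between them, and at 9.26 CPM in E13.5 LOF against 31.8 and 40.2 CPM in E13.5 controls.

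The reporter went against the control label. eGFP, which the WT label would not predict, was detected in 58.5% of fibroblasts in E14.5 LOF, and in 5.98% and 45.2% in E14.5 control replicates 1 and 2. At E13.5 it was detected in 47.4% of fibroblasts in LOF and in 3.39% and 53.9% in control replicates 1 and 2. In control replicate 2 the share was thus near that of LOF, and in replicate 1 it was far lower. tdTomato, the unrecombined state of the reporter, was found in 24.3% of keratinocytes in E14.5 LOF against 23.1% and 59.5% in E14.5 controls, and in 97.7% in E13.5 LOF against 97.9% and 94.1% in E13.5 controls, so reporter transcripts were present in all 4 control libraries. What genotype those embryos had was not tested, and every LOF comparison below rests on the labels.

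Both genes lie on the reverse strand in the GRCm38 assembly. Pthlh (ENSMUSG00000048776) spans chr6:147252101-147264183. Pth1r (ENSMUSG00000032492) spans chr9:110722085-110747145 and overlaps Myl3, a muscle myosin gene on the opposite strand. Whether counting used strand is not given in the sources used here, so reads of Pth1r and Myl3 may not be fully separated where the genes overlap. The sequence directly upstream of each gene is shown because both genes varied with Wnt target expression (below). It is taken from RefSeq, GRCm38.p6, and read 5′ to 3′ on the reverse strand: the 80 bases before Pthlh (chr6:147264184-147264263) and the 250 before Pth1r (chr9:110747146-110747395). Capitals mark the letters that match a TCF/LEF motif, CTTTGA or CTTTGT on either strand.
Pthlh: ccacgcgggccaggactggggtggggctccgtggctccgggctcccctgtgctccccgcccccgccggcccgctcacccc
Pth1r: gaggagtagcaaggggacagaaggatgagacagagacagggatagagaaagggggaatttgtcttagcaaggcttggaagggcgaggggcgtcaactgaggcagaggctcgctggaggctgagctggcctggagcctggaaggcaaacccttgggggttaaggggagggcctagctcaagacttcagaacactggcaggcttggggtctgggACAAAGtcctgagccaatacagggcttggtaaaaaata

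The Pth1r stretch holds 1 TCF/LEF match, whose first base lies 38 bases before the start site, and the 2 other RefSeq start windows of Pth1r hold 0. The 250-base window of Pthlh, of which 80 bases are printed, also holds 0. Of 32841 mouse windows of 250 bases, 27.6% hold at least 1 such match. A RUNX motif, TGNGGT on either strand, occurs 1 time in the Pthlh window and 1 time in the first Pth1r window, and 40.1% of all windows hold it. The cyclic AMP response motif TGACGTCA is in neither gene's windows and in 1.55% of all windows. Matches were counted for each motif alone, whatever its overlap with another, and a match describes letters only.

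Cells were assigned to classes by fixed UMI minimums for marker genes, and a cell that passed more than 1 gate counted in each class. Keratinocytes (Krt5, Krt14, Krt15 and Epcam, at least 10 UMIs together) numbered 785 to 2286 per library, and fibroblasts (Col1a1, Col1a2 and Col3a1, at least 15 UMIs) 3032 to 4885. Placode cells were those with a UMI of Dkk4 or Shh, secreted signals of the hair placode. Of the placode checks, Edar, the ectodysplasin receptor gene, was at 59.6 to 86.1 CPM in placode cells at E14.5 and at 17.9 to 26.8 CPM at E13.5. Lhx2, a placode transcription factor gene, was at 10.9 to 26.8 CPM at E14.5 and at 0.288 to 2.24 CPM at E13.5, and Shh was at 30.0 to 56.0 CPM at E14.5 and at 0.288 to 2.24 CPM at E13.5. At E13.5 the gate thus rested almost wholly on Dkk4, and the later placode genes were near 0.

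Pthlh was mostly an epithelial transcript in this skin, apart from cartilage. Keratinocytes held 56.5% to 85.6% of its UMIs in each library. The fibroblast gate, which some keratinocytes also passed, held 5.77% to 33.3%, most in E13.5 LOF. In keratinocytes Pthlh was at 6.15 CPM in E14.5 LOF, at 17.5 and 13.9 CPM in E14.5 control replicates 1 and 2, at 8.55 CPM in E13.5 LOF, and at 12.2 and 7.29 CPM in E13.5 control replicates 1 and 2. Fibroblasts had 1.11, 2.66, 0.975, 1.22, 1.35 and 0.195 CPM in the same order, below the keratinocytes of the same library in every case. Cells that passed no gate were at 1.17 to 13.6 CPM, and in E13.5 control replicate 1 they were above the keratinocytes. Macrophages, a class not known for making the peptide, were at 0 to 1.05 CPM with median depths of 8657 to 15828 UMIs. Some macrophage-gated cells also passed the keratinocyte or fibroblast gate, 9 and 24 of 189 in E14.5 LOF, so free RNA and doublets cannot be told apart in that level. Pthlh in fibroblasts lay within that range in 2 of 6 libraries.

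**Figure D1:**
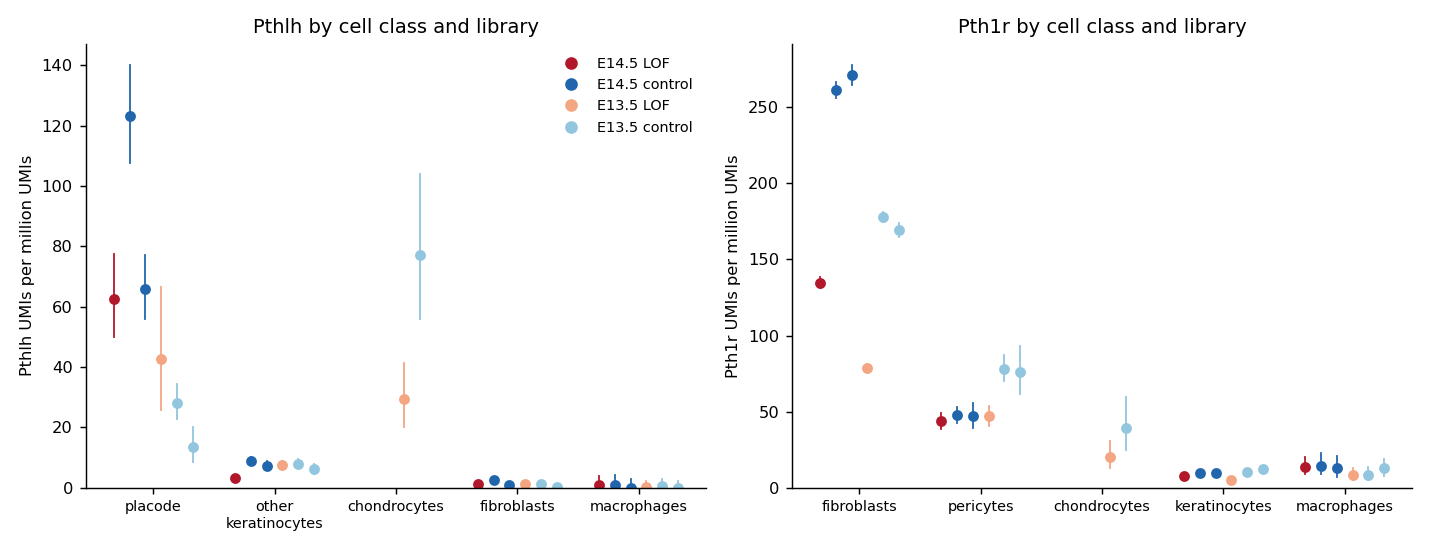
Pthlh (left) and Pth1r (right) in CPM for each library, by cell class; points are libraries and bars are exact 95% Poisson intervals, which cover counting error only. Pthlh is high in placode cells and in the 2 libraries with over 20 chondrocytes, and Pth1r in fibroblasts, where both LOF libraries lie below the controls of their stage.

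Placode cells carried the highest epithelial levels. Pthlh was at 62.6 CPM in placode cells of E14.5 LOF (95% Poisson interval 50.1 to 77.3, counting error only), against 123 and 65.9 CPM in the E14.5 controls. At E13.5 it was at 42.6 CPM in LOF (25.6 to 66.5), against 28.2 and 13.5 CPM in the controls. Both E14.5 controls lay above both E13.5 controls, with a ratio of means of 4.52. So few libraries can separate by order alone, and the share of all genes that do so was not counted. The gate rested almost wholly on Dkk4 at E13.5, so the cells compared may differ in kind. In the E14.5 controls 45 of 144 and 82 of 240 placode cells lay outside the keratinocyte gate. Inside that gate the ratio of means was 4.34. The E13.5 LOF value rested on 24 cells, of which 3 held all 19 UMIs. At E14.5 the LOF library lay 0.662 times the control mean and just below the lower control, and at E13.5 it lay above both controls. Among placode cells inside the keratinocyte gate Pthlh was at 68.4 CPM in E14.5 LOF against 145 and 65.9 CPM in E14.5 controls, so LOF then lay between them. The E13.5 direction turned with the gates: on the scale of log2(CPM + 1) LOF over control was 0.99, but -2.11 with cells of 1 gate only, -1.31 with doubled gate minimums and -0.63 without doublets.

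Keratinocytes with neither placode marker kept a low level of Pthlh. It was at 3.16 CPM in E14.5 LOF and at 8.84 and 7.33 CPM in E14.5 controls, then at 7.39 CPM in E13.5 LOF, against 7.79 and 6.11 CPM in E13.5 controls. The control ranges of the stages overlapped here, whereas over all keratinocytes both E14.5 controls lay above both E13.5 controls (ratio of means 1.61). The share of all genes that separate in this way was not counted. Placode cells exceeded the other keratinocytes of their own library in all 6 libraries, 6.16-fold over the libraries on the scale of log2(CPM + 1). The mean log2 ratio was 2.62 ± 1.12 (SD, n = 6), and 2.32 with cells of 1 gate only. In E13.5 LOF the placode level rested on 3 of 24 cells, which held all 19 UMIs.

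At the level of single cells, Pthlh was sparse. It was detected in 4.68% of keratinocytes in E14.5 LOF against 9.44% and 8.48% in the E14.5 controls, and in 2.68% in E13.5 LOF against 10.1% and 7.29% in the E13.5 controls. The LOF share lay below both controls at each stage. Groups this small can separate by order alone, and the share of all genes that do so was not counted. With each cell thinned to 3000 UMIs the shares were 1.93% in E14.5 LOF against 4.33% and 3.72% in controls, and 1.27% in E13.5 LOF against 2.40% and 2.15% in controls, so LOF was again below both controls at each stage. Macrophages had a Pthlh UMI in 0% to 0.901% of cells, below every keratinocyte share. Placode cells, richer in Pthlh, were 108 of 2286 keratinocytes in E14.5 LOF against 99 of 1525 and 158 of 1404 in E14.5 controls. At E13.5 they were 21 of 785 in LOF against 171 of 1042 and 132 of 1070 in controls. In keratinocytes without placode markers Pthlh was detected in 2.66% in E14.5 LOF against 5.82% and 5.54% in controls. At E13.5 that share was 2.36% in LOF against 6.54% and 6.18% in controls. The part of cell composition was not tested.

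A few cells held a large part of the signal. Keratinocytes with 4 or more Pthlh UMIs numbered 5 in E14.5 LOF against 31 and 11 in the E14.5 controls, and 9 in E13.5 LOF against 8 and 0 in the E13.5 controls. They carried 15.9% of keratinocyte Pthlh UMIs in E14.5 LOF against 55.9% and 31.7% in its controls, and 87.2% in E13.5 LOF against 38.6% and 0% in its controls. Without them, a comparison added after the data were seen, Pthlh was at 5.18 CPM in E14.5 LOF against 7.88 and 9.56 CPM in controls. At E13.5 it was then at 1.11 CPM in LOF against 7.56 and 7.29 CPM in controls. The E13.5 LOF library thus had few Pthlh-positive keratinocytes and 9 cells rich in it, up to 24 UMIs in 1 cell.

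**Figure D2:**
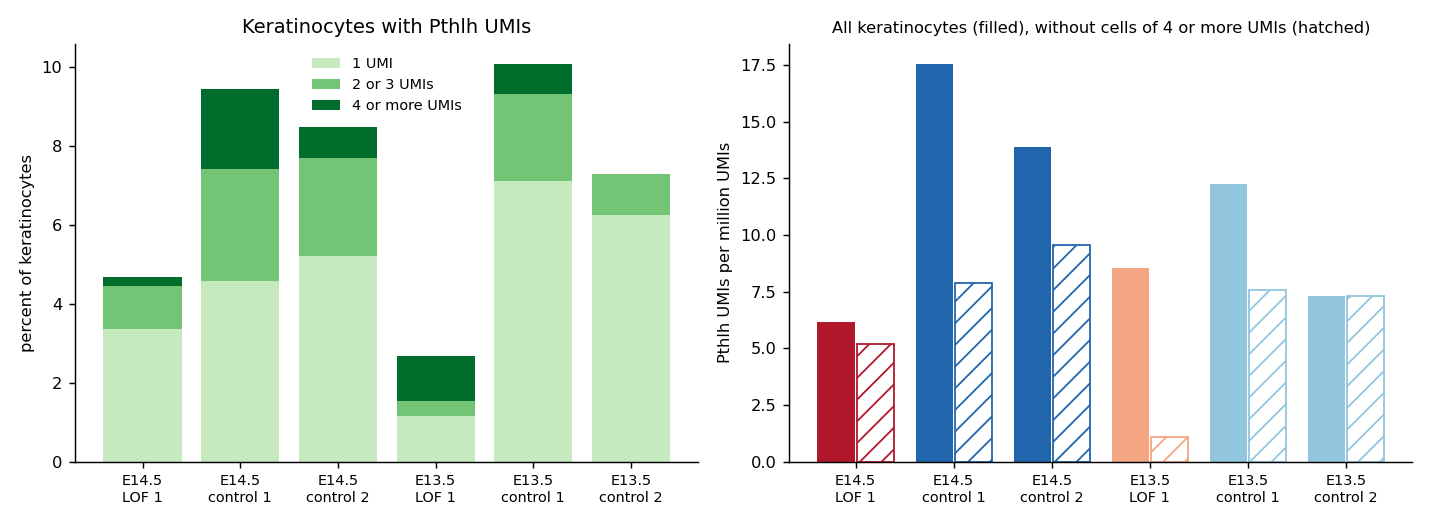
Left: percent of keratinocytes with 1, 2 or 3, and 4 or more Pthlh UMIs in each library. Right: Pthlh in CPM in all keratinocytes (filled) and without cells of 4 or more UMIs (hatched); the E13.5 LOF bar drops to 1.11 CPM while the E13.5 controls stay at 7.56 and 7.29 CPM.

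Chondrocytes, gated by Col2a1, the main cartilage collagen gene, were also rich in Pthlh. The 62 chondrocytes of E13.5 LOF were at 29.3 CPM (95% Poisson interval 20.1 to 41.4, counting error only) and the 31 of E13.5 control replicate 1 at 77.3 CPM (55.9 to 104). These are 1 library each, so the difference has no replicate check, and the 10 richest cells held 78.1% and 88.4% of the UMIs. Pthlh was detected in 27.4% of the chondrocytes of E13.5 LOF and in 48.4% of those of E13.5 control replicate 1. The other 4 libraries held 0 to 4 such cells, too few for a level. Of the markers set to check the gate, Sox9, the chondrocyte transcription factor gene, was high (515 CPM in E13.5 LOF, against 426 in E13.5 control replicate 1). Col9a1 was also high (517 and 580 CPM), while the later cartilage gene Matn1 was at 4.58 and 5.39 CPM. Acan was set as a check as well, and its level is not given here. Ordered by the median over libraries, chondrocytes (53.3 CPM) and placode (52.6 CPM) overlapped in range, keratinocytes (10.4 CPM) overlapped the placode range, and no library's fibroblasts (median 1.17 CPM) reached any library's keratinocytes. Schwann cells, pericytes, muscle, endothelial cells, melanoblasts, mast cells and macrophages had medians of 0 to 1.14 CPM and overlapped one another and the fibroblasts. Pericytes reached 6.44 CPM in E14.5 control replicate 1, where the 10 richest cells held 97.5% of the UMIs.

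Pth1r was a fibroblast transcript. Fibroblasts held 80.4% to 98.5% of its UMIs in each library. In fibroblasts Pth1r was at 135 CPM in E14.5 LOF against 261 and 271 CPM in E14.5 controls, and at 78.8 CPM in E13.5 LOF against 178 and 169 CPM in E13.5 controls. The control ranges of the stages did not overlap, with E14.5 at 1.53 times E13.5. Each LOF library lay below both controls of its stage, at 0.506 times the control mean at E14.5 and 0.454 times at E13.5. Groups of 1 or 2 libraries can separate by order alone, and the share of all genes that do so was not counted. In sums over a class, fewer cells of a subtype and less RNA per cell cannot be told apart.

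The share of positive cells moved the same way. Pth1r was detected in 52.6% of fibroblasts in E14.5 LOF against 75.9% and 72.9% in E14.5 controls, and in 51.1% in E13.5 LOF against 67.5% and 62.4% in E13.5 controls. Thinned to 3000 UMIs per cell, the shares were 28.8% in E14.5 LOF against 49.3% and 50.3% in controls, and 20.1% in E13.5 LOF against 36.7% and 35.4% in controls. Cells with 4 or more Pth1r UMIs numbered 442 of 4885 fibroblasts in E14.5 LOF against 1221 of 3562 and 672 of 3032 in E14.5 controls. At E13.5 they numbered 212 of 4804 in LOF against 966 of 4836 and 426 of 3428 in controls. Unlike Pthlh in keratinocytes, Pth1r was thus detected in most fibroblasts without thinning, and in 20.1% to 50.3% of them after it. Its 10 richest cells held 1.76% to 3.05% of its UMIs, a share that also depends on the total of UMIs.

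The pericyte gate came next in level, but most of its cells also passed the fibroblast gate: 433 of 516 in E14.5 LOF against 358 of 420 and 167 of 217 in E14.5 controls, and 252 of 281 in E13.5 LOF against 275 of 288 and 90 of 95 in E13.5 controls. Its Pth1r values are therefore mostly values of cells already counted as fibroblasts. They were at 43.6 CPM in E14.5 LOF against 47.6 and 46.9 CPM in E14.5 controls, and at 46.9 CPM in E13.5 LOF against 78.2 and 76.1 CPM in E13.5 controls. Chondrocytes of E13.5 LOF had 20.2 CPM, against 39.5 CPM in E13.5 control replicate 1. Keratinocytes were at 4.82 to 12.4 CPM and macrophages, set beside them as a low class, at 8.47 to 14.6 CPM. Keratinocytes were below the macrophages of their library in 5 of 6 libraries, and in E13.5 control replicate 1 they were above them, at 10.1 against 8.69 CPM. A Pth1r UMI was found in 4.59% to 9.12% of keratinocytes and in 7.26% to 8.11% of macrophages. Thinned to 3000 UMIs, the keratinocyte share was above the macrophage share in both E13.5 controls, at 2.21% against 0% in replicate 1 and 2.90% against 1.59% in replicate 2, and below it in the other 4 libraries.

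The order of medians ran from fibroblasts (174 CPM) to pericytes (47.3 CPM) to chondrocytes (29.9 CPM), and these 3 did not overlap in range, though chondrocytes overlapped placode cells. Placode cells, melanoblasts, endothelial cells, macrophages, muscle, Schwann cells, keratinocytes and mast cells, with medians of at most 22.4 CPM, each overlapped the next. Placode cells outside the keratinocyte gate had 67.0 to 118 CPM in the 5 libraries with over 20 such cells, against 2.36 to 15.3 CPM for those inside it. Cells that passed no gate reached 194 CPM in E13.5 control replicate 2 and 103 CPM in E13.5 control replicate 1, and 7.02 to 41.8 CPM elsewhere. Their Col1a1 was at 417 and 257 CPM in those 2 libraries, under the fibroblast gate but not absent.

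The classes highest in ligand and receptor differed, but some cells held both. Of Pthlh-positive fibroblasts, 13 of 40 also had a Pth1r UMI in E14.5 LOF against 31 of 54 and 11 of 20 in E14.5 controls, and 26 of 45 did in E13.5 LOF against 35 of 51 and 2 of 5 in E13.5 controls. Pth1r was found in 51.1% to 75.9% of all fibroblasts. Of the fibroblasts with both, 5 scored as doublets in E14.5 LOF and 12 and 5 in E14.5 controls. At E13.5, 4 did in LOF and 7 and 2 in controls. Of keratinocytes, 6 had a UMI of both genes in E14.5 LOF against 14 and 7 in E14.5 controls, and 2 had both in E13.5 LOF against 13 and 4 in E13.5 controls. Between 3 and 7 of these in each E14.5 library, and 2 or 3 in each E13.5 library, scored as doublets. With detection of the 2 genes independent, 4.91 would be expected in E14.5 LOF and 8.88 and 7.54 in E14.5 controls. At E13.5 the expected numbers were 1.10 in LOF and 9.57 and 5.90 in controls. Of Pthlh-positive chondrocytes, 4 of 17 had both in E13.5 LOF and 11 of 15 in E13.5 control replicate 1, and 0 and 1 of these scored as doublets. The numbers of chondrocytes with both expected under independence were 4.66 and 7.74.

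Within a library, cells were then split by markers, and CPM was compared between the sides of each split. The markers are not in the rule that chose the genes, but the splits were chosen with earlier results of these data known. The difference in log2(CPM + 5) was tested over libraries with a two-sided exact sign-flip permutation test, adjusted by Benjamini-Hochberg over the 8 splits made. With 6 libraries the smallest p this test can give is 0.0312, and with 5 it is 0.0625. Marker-positive cells were the deeper side in all entered libraries of 7 splits, and in the condensate split in only some. With cells thinned to 3000 UMIs each result kept its direction and its side of the threshold. With a marker minimum 1 UMI higher no adjusted p fell under 0.05.

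Pthlh was lower in cycling keratinocytes (8 cell-cycle genes, at least 4 UMIs together, 61.0% to 75.5% of keratinocytes). It was at 5.14 CPM in cycling against 9.14 CPM in other keratinocytes of E14.5 LOF, at 15.7 against 24.2 and 10.3 against 23.3 CPM in the E14.5 controls, at 2.63 against 29.2 CPM in E13.5 LOF, and at 9.69 against 23.3 and 6.29 against 9.53 CPM in the E13.5 controls. The difference was negative in 6 of 6 libraries, with a mean log2 difference of -0.89 ± 0.67 (SD, n = 6, exact sign-flip permutation test, p = 0.0312, adjusted p = 0.0417). E13.5 LOF stood farthest out, at -2.16, and without it the mean was -0.63. Without the cells of 4 or more Pthlh UMIs, an alternative added later, the difference was -0.33 with the same adjusted p, with those cells left out of both sides.

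Pthlh was higher in Wnt-responding keratinocytes (Lef1, Axin2 and Sp5, transcripts of genes that beta-catenin induces, at least 2 UMIs together). It was at 8.24 CPM in Wnt-responding against 2.24 CPM in other keratinocytes of E14.5 LOF, at 22.6 against 5.14 and 15.7 against 11.9 CPM in the E14.5 controls, at 12.96 against 5.24 CPM in E13.5 LOF, and at 15.5 against 3.41 and 8.66 against 4.605 CPM in the E13.5 controls. The mean log2 difference was 0.87 ± 0.44 (SD, n = 6, higher in 6 of 6, exact sign-flip permutation test, adjusted p = 0.0417). It was 0.61 without placode cells and 0.59 without cells of 4 or more Pthlh UMIs, each with the same adjusted p.

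Suprabasal keratinocytes (Krt1 and Krt10, keratins of stratifying layers, at least 5 UMIs together) had little Pthlh. Their levels were 0.663 CPM against 6.88 CPM in other keratinocytes of E14.5 LOF, 0.472 against 21.6 and 5.43 against 15.4 CPM in the E14.5 controls, 0 against 9.15 CPM in E13.5 LOF (0 UMIs in 40 cells), and 5.37 against 12.6 CPM in E13.5 control replicate 1. E13.5 control replicate 2, with 12 such cells, did not enter. The mean log2 difference was -1.32 ± 0.60 (SD, n = 5, lower in 5 of 5), and the exact sign-flip permutation test gave p = 0.0625, the smallest it can, and adjusted p = 0.0714, which misses the threshold of 0.05.

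**Figure D3:**
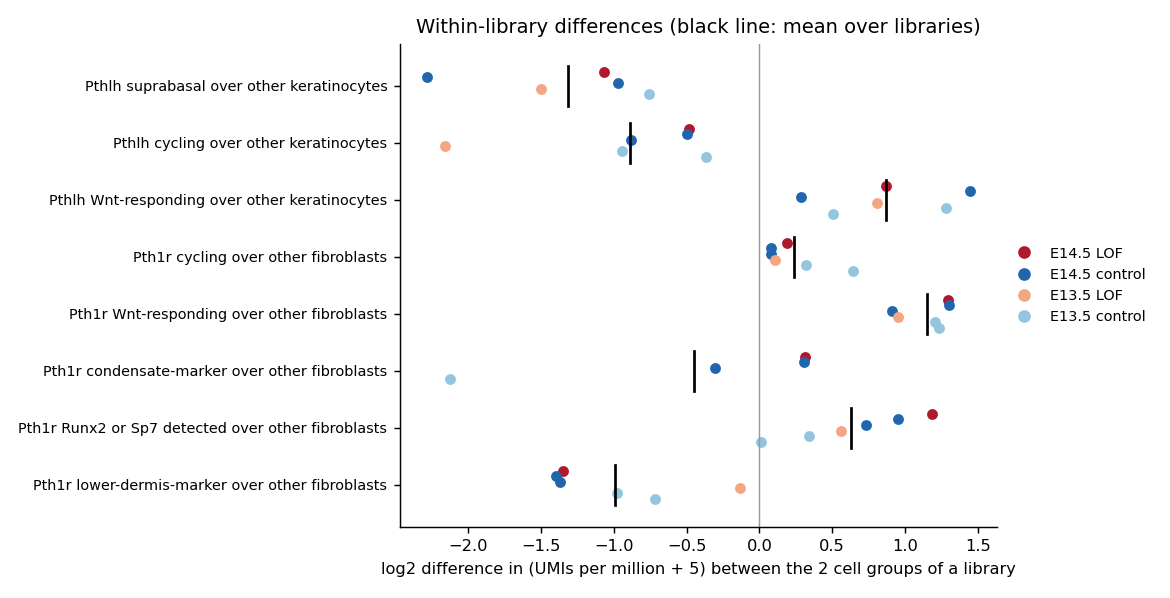
Difference in log2(CPM + 5) between the cells inside and outside each of 8 marker splits; each point is 1 library and the black line the mean over libraries. Pthlh lies below 0 for cycling and suprabasal keratinocytes and above 0 for Wnt-responding ones in every library shown, and Pth1r lies above 0 for Wnt-responding and below 0 for lower-dermis-marker fibroblasts in every library.

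Pth1r was higher in Wnt-responding fibroblasts in every library. It was at 264 CPM in Wnt-responding against 104 CPM in other fibroblasts of E14.5 LOF, at 395 against 157 and 410.5 against 216 CPM in the E14.5 controls, at 148 against 73.8 CPM in E13.5 LOF, and at 291 against 123 and 289 against 119.9 CPM in the E13.5 controls. The mean log2 difference was 1.15 ± 0.17 (SD, n = 6, higher in 6 of 6, exact sign-flip permutation test, adjusted p = 0.0417). Wnt-responding cells made up 15.5% of fibroblasts in E14.5 LOF against 41.7% and 25.7% in E14.5 controls, and 4.37% in E13.5 LOF against 26.1% and 23.1% in E13.5 controls.

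The lower-dermis side showed the opposite. Fibroblasts with at least 2 UMIs of Dpt, Mfap5 and Clec3b, matrix and fascia genes, had Pth1r at 80.1 CPM against 212 CPM in other fibroblasts of E14.5 LOF, at 129 against 348 and 129 against 342 CPM in the E14.5 controls, at 73.5 against 81.1 CPM in E13.5 LOF, and at 96.1 against 194 and 106 against 177 CPM in the E13.5 controls. The mean log2 difference was -0.99 ± 0.50 (SD, n = 6, lower in 6 of 6, exact sign-flip permutation test, adjusted p = 0.0417). E13.5 LOF had the smallest difference, -0.13. These cells made up 55.9% of fibroblasts in E14.5 LOF against 37.6% and 30.6% in E14.5 controls, and 27.3% in E13.5 LOF against 15.5% and 10.1% in E13.5 controls.

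Pth1r was also higher in fibroblasts with a UMI of Runx2 or Sp7, transcription factor genes of the bone lineage that dermal cells can express. It was at 266 CPM in Runx2- or Sp7-positive against 114 CPM in other fibroblasts of E14.5 LOF, at 404 against 207 and 415 against 249 CPM in the E14.5 controls, at 115 against 76.4 CPM in E13.5 LOF, and at 218 against 171 and 171 against 169 CPM in the E13.5 controls. The mean log2 difference was 0.63 ± 0.42 (SD, n = 6, exact sign-flip permutation test, adjusted p = 0.0417), though in E13.5 control replicate 2 it was 0.01. Cycling fibroblasts had slightly more Pth1r, with a mean log2 difference of 0.24 ± 0.22 (SD, n = 6, higher in 6 of 6, exact sign-flip permutation test, adjusted p = 0.0417), ranging from 0.08 to 0.64 over libraries.

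Fibroblasts with dermal condensate markers (Sox2, Sox18 and Foxd1, at least 2 UMIs together) gave no steady difference. Pth1r was at 168 CPM in marker-positive against 134 CPM in other fibroblasts of E14.5 LOF, at 322 against 259 and 219 against 272 CPM in the E14.5 controls, and at 37.0 against 178 CPM in E13.5 control replicate 1, where 20 cells entered. The mean log2 difference was -0.45 ± 1.15 (SD, n = 4, higher in 2 of 4, exact sign-flip permutation test, adjusted p = 0.875). Without E13.5 control replicate 1 it was 0.11, and 4 libraries cannot give a p below 0.125.

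Since Wnt-responding fibroblasts were fewer and lower-dermis-marker ones more frequent in LOF, Pth1r was also read within cells of like marker state. In Wnt-responding fibroblasts without lower-dermis markers it was at 313 CPM in E14.5 LOF against 433 and 444 CPM in E14.5 controls, and at 162 CPM in E13.5 LOF against 301 and 294 CPM in E13.5 controls. In fibroblasts with lower-dermis markers and no Wnt response it was at 76.5 CPM in E14.5 LOF against 111 and 122 CPM in E14.5 controls, and at 73.9 CPM in E13.5 LOF against 92.1 and 103 CPM in E13.5 controls. In each of 16 such strata, 8 per stage (Wnt response crossed with lower-dermis markers and with Runx2 or Sp7), LOF lay below both controls. The ratios to the control mean ran from 0.468 to 0.832. At E14.5 the ratios were 0.555 to 0.714, against 0.506 over all fibroblasts. At E13.5 they were 0.468 to 0.832, against 0.454 over all fibroblasts. The strata of a stage divide the same fibroblasts more than once, so they are not separate checks. They rest on coarse marker minimums and hold 1 LOF library per stage. The share of all genes with the same order was not counted. The part of cell composition in the difference was not tested.

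**Figure D4:**
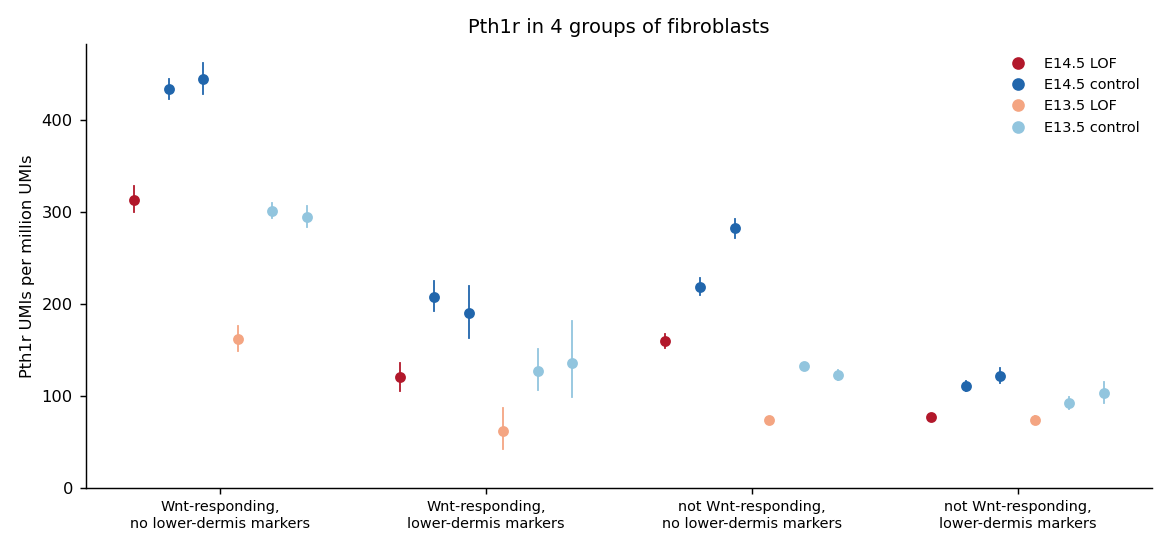
Pth1r in CPM in fibroblasts divided by Wnt response and by lower-dermis markers; points are libraries and bars exact 95% Poisson intervals (counting error only). In each of the 4 cell groups the LOF point lies below both controls of its stage.

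The reporter gave a further reading, added after its pattern was seen. In fibroblasts with eGFP, Pth1r was at 143 CPM in E14.5 LOF against 323 CPM in E14.5 control replicate 2, and at 82.1 CPM in E13.5 LOF against 203 CPM in E13.5 control replicate 2. In fibroblasts without an eGFP UMI it was at 122 CPM in E14.5 LOF against 223 CPM in that control, and at 75.7 CPM in E13.5 LOF against 122 CPM. The LOF value was lower on both sides at both stages, with ratios of 0.444 and 0.405 with eGFP and 0.548 and 0.621 without. Within control replicate 2, cells with eGFP had more Pth1r than cells without it at each stage, and in control replicate 1, with 213 and 164 eGFP-positive fibroblasts, the 2 sides had overlapping Poisson intervals. Pdgfra, whose promoter drives the Cre, was at 224 CPM in fibroblasts of E14.5 LOF against 147 and 57.0 CPM in controls, and at 128 CPM in E13.5 LOF against 77.3 and 48.6 CPM in controls, and its part in these values was not tested.

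**Figure D5:**
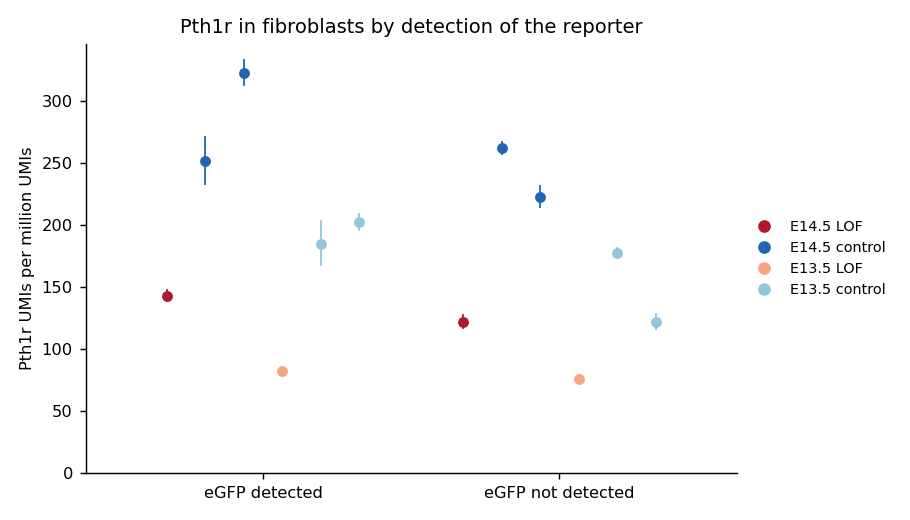
Pth1r in CPM in fibroblasts with and without an eGFP UMI; points are libraries and bars exact 95% Poisson intervals (counting error only). The LOF points lie below every control point of their stage on both sides.

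The other ligands and receptors of the family were nearly silent, so Pthlh and Pth1r were the pair seen here. Pth and Pth2, the other ligands, had 0 UMIs in keratinocytes of all 6 libraries, which allows up to 0.246 CPM in the shallowest. Pth2r, the second receptor, also had 0 in keratinocytes and was at 0 to 0.0720 CPM in fibroblasts. Ramp2, a membrane partner that can associate with the receptor, was at 74.2 CPM in fibroblasts of E14.5 LOF against 63.4 and 94.5 CPM in E14.5 controls, and at 52.1 CPM in E13.5 LOF against 45.8 and 37.4 CPM in E13.5 controls. Gnas, which encodes the Gs protein through which the receptor raises cyclic AMP, was at 1112 to 2615 CPM in fibroblasts. Of the proteases that can cut the precursor, Furin was at 11.6 to 25.7 CPM in keratinocytes. Pcsk2, another prohormone protease gene, was at 5.04 to 64.4 CPM there.

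Genes around the pair were taken from 8 lists with 113 genes in all: family and partners, prohormone processing, the cyclic AMP and Gq machinery, rapid cyclic AMP responders, mammary mesenchyme responders, the cartilage loop, and inducers of Pthlh. They were tested with all genes by edgeR's quasi-likelihood test on class sums. Between E14.5 and E13.5 control keratinocytes 42 of 12863 genes passed (0.327%), of which the higher ones were 0.233% and the lower ones 0.0933% of those tested, and of 92 list genes tested 1 passed, higher. That gene was Ptch1, a hedgehog receptor that hedgehog signalling itself induces, listed for the cartilage loop. It was at 40.6 and 28.8 CPM in E14.5 controls against 3.51 and 2.05 CPM in E13.5 controls (log2 fold change 3.67, SE 0.36, edgeR adjusted p = 0.0298), with 24.6 CPM in E14.5 LOF and 3.51 CPM in E13.5 LOF. Without scaling factors the adjusted p was 0.119. In fibroblasts Ptch1 was at 47.5 and 24.3 CPM in E14.5 controls against 2.74 and 2.08 CPM in E13.5 controls, with a log2 fold change of 3.88 that missed the threshold (edgeR adjusted p = 0.0703).

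In the other 3 comparisons no gene passed in edgeR, 0.00% of those tested. In fibroblasts between stages that was 0 of 14813 genes, although 2493 had p under 0.05 before adjustment and DESeq2 called 907. For LOF over control it was 0 of 16032 genes in fibroblasts (1094 unadjusted, 207 by DESeq2) and 0 of 13764 in keratinocytes (366 unadjusted, 12 by DESeq2).

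By direction alone, the rapid responders to cyclic AMP, such as the immediate-early genes Fos, Junb and Nr4a1, stood higher in E14.5 than in E13.5 controls. Of 13 tested, 12 had a positive log2 fold change in keratinocytes and 12 in fibroblasts, with medians of 1.51 and 1.19. Over all genes 53.3% and 52.4% were positive, with medians of 0.04 and 0.03. None of the 13 passed in edgeR. Before adjustment 8 and 9 had p under 0.05, against 13.6% and 16.8% of all genes. Nr4a1 was at 118 and 196 CPM in fibroblasts of E14.5 controls against 20.4 and 45.1 CPM in E13.5 controls. The LOF libraries did not all follow this order. In LOF fibroblasts, E14.5 against E13.5, Fos was at 679 against 475 CPM, Junb at 308 against 329 and Nr4a1 at 70.7 against 62.2. In LOF keratinocytes Fos was at 172 against 93.8 CPM, Junb at 62.3 against 56.4 and Nr4a1 at 7.87 against 10.7. These genes respond to many stimuli, cell dissociation included, and the part of the receptor in their levels was not tested. Of the 8 mammary mesenchyme responders, 2 had a positive log2 fold change for LOF over control in fibroblasts, against 52.8% of all genes. Their median was -0.17, against 0.03 over all genes. In keratinocytes 7 of the 8 were positive, against 52.3% of all genes, with medians of 0.18 and 0.02. None passed in either class.

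The genes whose levels most resembled the pair were found by Pearson correlation of log2(CPM + 5) over 61 sums of a class in a library, among 9834 genes. These sums share libraries and depth, so the correlations are descriptions. For Pthlh they were Gyltl1b (r = 0.85), Edar (0.83), Ascl4 (0.83), Bmp2 (0.82) and Acer2 (0.82). Edar is the ectodysplasin receptor of the placode, and Bmp2 encodes a bone morphogenetic protein. For Pth1r they were Twist2 (r = 0.94), Cacna1g (0.91), Vcam1 (0.91), Tmem132c (0.90) and Egfl6 (0.90). Twist2 is a transcription factor gene of dermal mesenchyme, and it ran from 140.0 to 731 CPM in fibroblasts against 9.43 to 36.2 CPM in keratinocytes.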

How the data were processed

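Droplet 3′ libraries were made with the 10x v2 chemistry per the labels' protocols. Per the submitters' processing notes the authors used Cell Ranger, Seurat and the mm10 (GRCm38) build, versions not given. The deposited matrices hold raw UMI counts per gene and barcode. Of 41594 barcodes, 40653 had 1000 UMIs, 500 genes and at most 10% mitochondrial UMIs. Totals per library were 53461986 to 86446575 UMIs. Doublets were scored from simulated pairs (4.68% to 7.14% called) and kept in the main values. CPM is per 1000000 UMIs of the class, with exact 95% Poisson intervals. Level ratios on a log scale added 1 CPM, splits 5 CPM, with 20 cells a side. Class sums were tested by edgeR 4.0.16 quasi-likelihood (TMM, filterByExpr) in R 4.3.3, with limma 3.58.1 and, as alternative, DESeq2 1.42.0; stage was a covariate for LOF over control. The models were tested on simulated data. Python 3.11.15, numpy 2.4.6, scipy 1.17.1, pandas 2.3.3, scikit-learn 1.9.0 and matplotlib 3.10.9 were used. The members, lists and splits were chosen with earlier results of these data known. List genes past the test were to be named, with the 5 genes most like each member; other list genes are named as examples after their values were seen. Alternatives covered thinning, pseudocounts, gates, doublets, depth filters, batch, block and left-out libraries.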

Additional observations from a re-analysis of the deposited data

Results flagged for a closer look

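Pthlh in placode cells differed in direction between stages, with LOF at 0.662 times the control mean at E14.5 and 2.04 times at E13.5, where LOF had 24 cells. The same contrast appeared in keratinocytes that were not cycling, at 0.385 times at E14.5 and 1.78 times at E13.5. It appeared again in keratinocytes without Wnt response, at 0.263 times at E14.5 and 1.31 times at E13.5. In each of these 3 values the LOF library lay outside both controls of its stage, on opposite sides at the 2 stages, and the difference between stages was not tested. Among placode cells inside the keratinocyte gate, E14.5 LOF lay between its controls (68.4 CPM, against 145 and 65.9 CPM). The E13.5 placode value turned to -2.11, -1.31 and -0.63 on the log2 scale with exclusive gates, doubled gate minimums and doublets removed. In E13.5 LOF 9 cells, 2 of them scored as doublets, held 102 of the 117 keratinocyte Pthlh UMIs, and over all keratinocytes LOF over control at E13.5 was -2.0001 without cells of that kind in any library.

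The reporter, outside the comparisons the labels define, was detected in controls. eGFP was found in 45.2% of fibroblasts in E14.5 control replicate 2 and 53.9% in E13.5 control replicate 2, against 5.98% and 3.39% in replicate 1 of those stages.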

How the results depend on the processing

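Of 276 alternative values, 177 kept their direction and side of the threshold or stayed within the spread. In the 4 controls alone, which cannot give an adjusted p under 0.05, splits were -0.67 (Pthlh, cycling), 0.88 (Pthlh, Wnt-responding), 0.28 (Pth1r, cycling), 1.16 (Pth1r, Wnt-responding), 0.51 (Runx2 or Sp7) and -1.11 (lower dermis). With a split minimum 1 UMI higher they were -0.83, 0.84, 0.24, 1.16, 0.58 and -1.03, with adjusted p of 0.05 to 0.0714, and the condensate split turned to 0.32. That split was 0.10 with exclusive gates and 0.13 without doublets. Leaving out 1 library gave -0.99 to -0.63, 0.75 to 0.98, 0.15 to 0.27, 1.12 to 1.20, 0.52 to 0.75 and -1.16 to -0.91 in that order, -1.46 to -1.08 for suprabasal and -0.71 to 0.11 for condensate cells. No split of 5 libraries could pass.

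Pth1r in fibroblasts over keratinocytes was 4.12 on the log2 scale, 5.75 with exclusive gates and 5.67 without doublets. Its stage difference, 0.61, was 0.69 with exclusive gates and 0.70 with doubled gate minimums. LOF over control at E13.5, -1.13, was -0.96 with doubled minimums, -1.29 with eGFP and -0.68 without. At E14.5, -0.98, it was -1.17 with eGFP and -0.86 without. Pthlh in placode cells at E13.5, LOF over control, was 0.99, but -2.11 with exclusive gates, -1.31 with doubled minimums and -0.63 without doublets. In keratinocytes at E13.5 it was -0.17, then -0.55 without doublets, 0.20 without E13.5 control replicate 1 (leave-one-out range -0.47 to 0.20) and -2.0001 without cells of 4 or more UMIs. Without those cells LOF over control at E14.5 went to -0.65 (main -1.23) and the stage difference to 0.21 (main 0.64), which was 0.34 to 1.01 with 1 library left out.

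Genes called between stages in keratinocytes (42) were 462 with DESeq2, 0 without scaling factors, 829 without a count filter, 1508 with a batch term that earlier results of these data, not the labels, gave and 76 to 2169 with 1 library left out. In fibroblasts (0) they were 907, 532 without a filter, 24 with exclusive gates, 2481 with batch and 263 to 3201. For LOF over control they were 12 with DESeq2, 17 with batch and 0 to 0 in keratinocytes, and 207, 2 without a filter, 2 with exclusive gates, 499 with batch and 0 to 1 in fibroblasts. Numbers of replicates are shared by name only, over 2 pairs (correlation of deviations 0.41 in keratinocytes and 0.38 in fibroblasts). With a replicate block the stage counts were 1636 in keratinocytes and 1057 in fibroblasts, and 0 for LOF over control in both. The causes were not tested. A count of 0 allows up to 0.246 CPM in keratinocytes and 0.122 CPM in fibroblasts of the shallowest library.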

Other observations

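Keratinocytes with 4 or more Pthlh UMIs were compared with the other keratinocytes of their library, after the values were seen, and the genes below lead by fold. At E14.5 these cells were led by Ltb, a lymphotoxin gene, at 737 CPM in E14.5 LOF and 412 and 495 CPM in E14.5 controls, against 15.8, 16.9 and 34.96 CPM in the other keratinocytes. Bdnf, a neurotrophin gene, followed at 237, 167 and 248 CPM, against 5.06, 5.62 and 10.9 CPM. Wif1, which encodes a secreted Wnt inhibitor, was at 184, 228 and 206 CPM, against 4.55, 6.91 and 9.30 CPM.

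At E13.5 another set led. Nkd1, a Wnt feedback gene, was at 197 and 443 CPM in E13.5 LOF and E13.5 control replicate 1, against 5.31 and 10.7 CPM in other keratinocytes. Tbx3, a transcription factor gene of the mammary bud among other tissues, was at 283 and 243 CPM, against 9.07 and 4.14 CPM. Ndnf was at 249 and 148 CPM, against 0.590 and 0.549 CPM. The cells number 5 to 31 per library, were chosen by Pthlh itself and are given no cell type name.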
